A study of Mus musculus with 6 samples.

Results

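Growth factor receptor tyrosine kinases are single-pass membrane proteins that bind a secreted or membrane-bound ligand outside the cell, pair up, and phosphorylate tyrosines on each other and on docking proteins inside the cell. Through adaptors such as Grb2 and Shc1 they switch on Ras and PI3-kinase, and in mammary tumors the EGF receptor family, Met, the IGF receptor and Axl are known regulators of growth, survival and motility. The transcripts of 10 of these receptors were chosen by gene symbol, and 9 were listed among the 10520 genes with counts: Egfr, Erbb2, Met, Fgfr1, Igf1r, Pdgfrb, Axl, Insr and Epha2. Erbb3, the EGF receptor family member with little kinase activity of its own, was not analysed here. All 9 passed the filter on low counts that left 8969 genes for testing.

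RNA came from E0771 cells, a mouse breast adenocarcinoma line from the C57BL/6 strain. The 3 shControl libraries came from cells carrying an empty pLKO.5 vector, and the 3 shLmna libraries from cells carrying an shRNA construct against lamin A/C, whose titles read shRNA4. Both groups were transduced with lentivirus, selected with 3 µg/mL puromycin and grown in DMEM with 10% serum, so that serum growth factors were present in both. The transduced cells were selected and expanded with no cloning step named, the empty vector holds no shRNA, and the labels do not say whether replicates were separate cultures, so that p-values measure only the spread between these libraries, which may be technical.

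The libraries are of the MARS-seq type, a 3'-end method that marks every captured molecule with a unique molecular identifier (UMI). They held 1846208 to 3242051 UMIs each, and values below are normalized counts, that is UMIs scaled to CPM by TMM (a correction of library size that ignores strongly changing genes). Lmna, the targeted gene, had a normalized count of 873 ± 62.8 in shControl and 381 ± 6.34 in shLmna (SD, n = 3 each). Of the mammary epithelial markers, Krt8 was the highest, and Cdh1, Cldn3, Cldn4, Krt5 and Krt19 were not among the listed genes. The 5 listed epithelial markers, of 10 and mostly Krt8, summed to 276 to 330 CPM in shControl and 295 to 319 in shLmna. Of the 4 tested, 0 passed the test (edgeR, 2 at an unadjusted p below 0.05), against 13.7% of all tested genes in either direction. Their median log2 fold change was -0.71, with Krt8 at 0.074, Krt18 at -0.53, Epcam at -0.90 (adjusted p = 0.0909, edgeR) and Krt14 at -1.18 (adjusted p = 0.0772, edgeR). The groups did not overlap for Epcam and Krt14, as was the case, lower in shLmna, for 15.7% of all tested genes. The 7 listed mesenchymal markers, of 8 and mostly Vim, summed to 4834 to 5723 and 5658 to 6451. Of the 3 tested, Acta2, a smooth muscle actin, had a log2 fold change of 2.18 (adjusted p = 0.00147, edgeR). Its values were 2.75, 4.07 and 1.59 CPM in shControl against 9.74, 15.1 and 16.5 in shLmna. As UMIs these were 7, 13 and 3 against 26, 41 and 31. It thus passed the filter on low counts only through the shLmna libraries, and its p-value is given as a description. In the higher direction, 7.96% of all tested genes passed (edgeR). Zeb1, at 0.58 (adjusted p = 0.118, edgeR), did not overlap between the groups, as held, higher in shLmna, for 16.8% of all tested genes. Vim was at 0.18 (adjusted p = 0.414, edgeR). The other 4 listed, too scarce to be tested, overlapped between the groups. In shLmna, Fn1 was lower in the mean, and Col1a1, Col1a2 and Zeb2 were higher. Cdh2 was not listed. Of the 6 leukocyte markers only Cd68 was listed, at 5.32 to 13.3, and of the 5 endothelial markers only Pecam1, at 0.625 to 3.18. The 6 listed markers of the melanocyte lineage (Mlana, Pmel, Dct, Tyrp1, Mitf and Sox10) summed to 1421 UMIs in shControl replicate 3 and 1647 in shLmna replicate 2, against 2 to 15 UMIs in each of the other 4 libraries. Both of these libraries, 1 in each group, stand apart from the others, and the study also worked with B16F10 melanoma cells. Results for the receptors, and for the reported genes of related lists that passed, are given with and without them. Those for the marker genes, and for genes named after their values were seen, are given only with them. In bulk RNA of this kind, fewer cells of a type and less RNA per cell cannot be told apart.

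The promoters of Axl, Igf1r and Egfr are shown because these were receptors with some of the largest differences in either direction. They are the RefSeq sequences of GRCm38.p6 from 250 bases before to 50 bases after the annotated start, a table in which 6 of the 10 receptors had an entry. Capitals mark the GC box GGGCGG on either strand, a motif bound by zinc finger factors of the Sp family. The Axl promoter lies on the reverse strand at chr7:25788684-25788983, that of Igf1r on the forward strand at chr7:67952007-67952306, and that of Egfr on the forward strand at chr11:16751953-16752252. Gene positions given below are those of GENCODE M21, whose starts can differ from those of RefSeq. The Igf1r window ends before the GENCODE gene begins, at 67952827.
Axl: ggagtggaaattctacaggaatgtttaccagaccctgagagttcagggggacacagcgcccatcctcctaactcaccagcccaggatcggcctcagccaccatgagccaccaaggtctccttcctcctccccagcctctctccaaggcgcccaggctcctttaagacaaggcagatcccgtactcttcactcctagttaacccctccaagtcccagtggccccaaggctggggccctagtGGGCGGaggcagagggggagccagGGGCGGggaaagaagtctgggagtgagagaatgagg
Igf1r: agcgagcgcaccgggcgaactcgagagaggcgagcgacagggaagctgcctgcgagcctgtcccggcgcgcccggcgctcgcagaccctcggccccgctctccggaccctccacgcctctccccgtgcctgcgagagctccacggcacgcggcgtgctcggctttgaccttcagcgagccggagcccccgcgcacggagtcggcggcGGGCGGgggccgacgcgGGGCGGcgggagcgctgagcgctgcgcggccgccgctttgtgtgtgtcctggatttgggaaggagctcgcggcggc
Egfr: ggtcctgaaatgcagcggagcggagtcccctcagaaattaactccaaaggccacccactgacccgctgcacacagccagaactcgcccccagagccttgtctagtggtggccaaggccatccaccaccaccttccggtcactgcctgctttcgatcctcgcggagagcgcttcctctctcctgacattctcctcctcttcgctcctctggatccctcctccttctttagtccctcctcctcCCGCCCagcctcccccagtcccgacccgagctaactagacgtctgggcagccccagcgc
The GC box occurred at 2 positions in Axl, 2 in Igf1r and 1 in Egfr, and 35.7% of the 32851 promoters in the table hold at least 1. None of the 3 held TATAAA, which 13.6% of the promoters hold on either strand, CCAAT, which 37.4% hold, or the AP-1 motif TGANTCA, which 7.81% hold. The GC content was 60.3% for Axl, 76.0% for Igf1r and 62.3% for Egfr, against a median of 52.7% over all promoters. These are descriptions of the letters in these windows only, and they are not tied here to any difference between the groups.

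In lamin A/C knockdown E0771 cells, transcripts of Axl, the receptor for Gas6, and Pdgfrb, the PDGF receptor β, were 1.48-fold and 1.68-fold higher than in shControl cells. Both calls were narrow (adjusted p = 0.0464 and 0.0457, edgeR). With 1 library left out, Axl passed in 1 of the 6 fits and Pdgfrb in 0. Without both melanocyte-marker libraries neither passed (adjusted p = 0.178 and 0.106, edgeR). Igf1r, the receptor for insulin-like growth factors, was 1.66-fold higher in the estimate but missed the threshold, and no receptor passed the test in the lower direction. Of the 9 receptors, 2 had an adjusted p below 0.05 (quasi-likelihood test of edgeR, p-values adjusted by Benjamini-Hochberg over all tested genes), against 13.7% of all tested genes in either direction, 7.96% higher and 5.78% lower in shLmna. With 9 genes this is not read as a result particular to the receptors. DESeq2 gave 1 receptor higher, Axl, and limma-voom gave 1, Pdgfrb, each with 0 lower. At an unadjusted p below 0.05 edgeR gave 3 higher and 0 lower. By all 3 tools, 0 of the receptors met the study's criteria for a call (an adjusted p below 0.05, an absolute log2 fold change above 1 and a mean normalized count above 5), which 5.71% of the tested genes met. The median log2 fold change of the 9 receptors was 0.25, with 7 above 0 and 2 below, against 0.003 for all tested genes, of which 4521 of 8969 were above 0. Insr, counted above 0, had a value that rounds to 0.0.

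**Figure D1:**
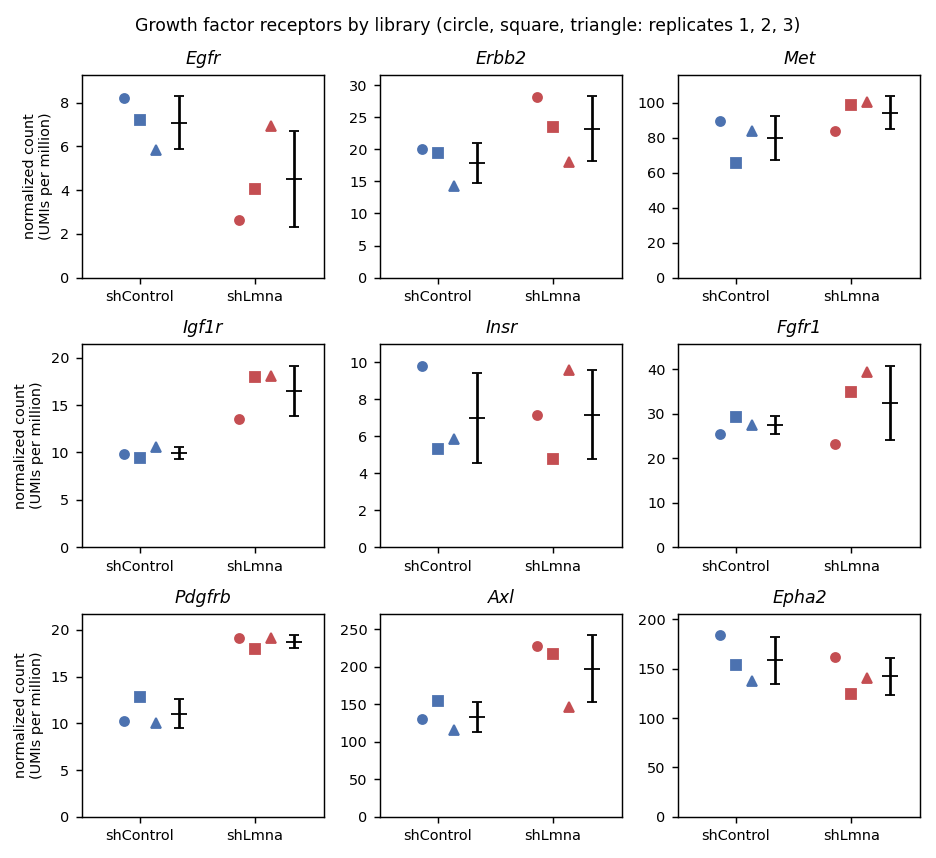
Normalized counts (CPM, vertical axes from 0) of the 9 receptors in each shControl and shLmna library, with circles, squares and triangles for replicates 1, 2 and 3 and a black bar for the mean ± SD (n = 3). The groups do not overlap for Igf1r and Pdgfrb, and overlap for the other 7 receptors. Among all tested genes, the groups do not overlap for 32.5% in either direction.

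UMIs were counted in an end window of the same length in every gene. Capture may still differ between genes, with GC contents of the 3' ends from 36.0% for Egfr to 52.8% for Erbb2, and this was not tested. The order of the receptors below therefore describes normalized counts, and may not be that of their transcript numbers. In shControl cells Epha2 (159 ± 23.6), Axl (133 ± 19.6) and Met (79.6 ± 12.4) had the highest levels, followed by Fgfr1 (27.5 ± 1.95) and Erbb2 (17.9 ± 3.12). Pdgfrb (11.03 ± 1.55), Igf1r (9.93 ± 0.625), Egfr (7.09 ± 1.20) and Insr (6.99 ± 2.46) were the lowest (SD, n = 3 throughout). The ranges of Epha2 and Axl overlapped in shControl, as did those of Pdgfrb and Igf1r and those of Egfr and Insr, and so these neighbours in the order did not differ beyond their spread. In shLmna cells Axl, at 198 ± 44.3, stood above Epha2, at 142 ± 18.4, with overlapping ranges, and the other receptors kept their order except that Insr, at 7.16 ± 2.4, stood above Egfr, at 4.53 ± 2.19.

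The EGF receptor family binds EGF-like ligands such as Hbegf and Areg. Egfr, its founding member (chromosome 11 of GRCm38, 16752203 to 16918158, forward strand), was among the scarcest receptors, its shControl replicates 1, 2 and 3 holding 21, 23 and 11 UMIs and its shLmna replicates 7, 11 and 13. As normalized counts these were 8.24, 7.19 and 5.84 against 2.62, 4.04 and 6.91, so that shLmna replicate 3 lay within the range of the shControl libraries. The log2 fold change of Egfr was -0.72 (SE 0.39, 95% interval -1.54 to 0.10, adjusted p = 0.237, edgeR), and it was -1.12 (adjusted p = 0.0568) after a correction for the GC content of the 3' end, 36.0% for Egfr.

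Erbb2, the co-receptor that binds no ligand of its own (chromosome 11, 98412470 to 98437716, forward strand), had normalized counts of 20.0, 19.4 and 14.3 in shControl and 28.1, 23.5 and 18.1 in shLmna. The lowest shLmna library lay below 2 of the shControl libraries, and the log2 fold change was 0.37 (SE 0.23, 95% interval -0.13 to 0.87, adjusted p = 0.319, edgeR). The counted end of Erbb2 overlaps an exon of Mien1 on the opposite strand, and whether the counting used the strand is not given in the sources used here, so its reads may include those of Mien1.

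Met, the receptor for hepatocyte growth factor (chromosome 6, 17463800 to 17573980, forward strand), had normalized counts of 89.4, 65.7 and 83.8 in shControl and 83.6, 98.8 and 100.5 in shLmna. Its groups overlapped, since shLmna replicate 1 lay below 2 shControl libraries. The log2 fold change was 0.25 (SE 0.16, 95% interval -0.10 to 0.60, adjusted p = 0.353, edgeR), and 0.021 after the GC correction (adjusted p = 0.950).

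The insulin receptor family held the receptors for insulin-like growth factors and for insulin. Igf1r (chromosome 7, 67952827 to 68233668, forward strand) had 25, 30 and 20 UMIs in shControl and 36, 49 and 34 in shLmna, or normalized counts of 9.81, 9.38 and 10.6 against 13.5, 17.99 and 18.1. Every shLmna library lay above every shControl library, as was the case, higher in shLmna, for 16.8% of all tested genes. The log2 fold change was 0.73 (SE 0.25, 95% interval 0.20 to 1.27), with an adjusted p of 0.0651 (edgeR). Insr (chromosome 8, 3122061 to 3279617, reverse strand), the insulin receptor itself, had 25, 17 and 11 UMIs in shControl and 19, 13 and 18 in shLmna, normalized counts of 9.81, 5.32 and 5.84 against 7.12, 4.77 and 9.57. The libraries of both groups were interleaved, and the interval of the log2 fold change, from -0.78 to 0.78, leaves room for changes in either direction (edgeR, adjusted p = 1.00).

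Fgfr1, a receptor for fibroblast growth factors (chromosome 8, 25513654 to 25575718, forward strand), had normalized counts of 25.5, 29.4 and 27.6 in shControl and 23.2, 34.9 and 39.4 in shLmna. The shLmna libraries spread more widely than the shControl libraries and enclosed them, with a log2 fold change of 0.23 (SE 0.22, 95% interval -0.24 to 0.69, adjusted p = 0.541, edgeR).

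Pdgfrb, best known in pericytes and fibroblasts (chromosome 18, 61045150 to 61085061, forward strand), had 26, 41 and 19 UMIs in shControl and 51, 49 and 36 in shLmna. As normalized counts these were 10.2, 12.8 and 10.1 against 19.1, 17.99 and 19.1, so that all 3 shLmna libraries lay above all 3 shControl libraries, with an SD of 0.658 among the shLmna libraries. Such a separation, higher in shLmna, held for 16.8% of all tested genes. The log2 fold change was 0.74 (SE 0.23, 95% interval 0.25 to 1.24, adjusted p = 0.0457, edgeR). The call was narrow. With DESeq2 the adjusted p of Pdgfrb was 0.133, with limma-voom 0.0474, without both melanocyte-marker libraries it was 0.106 at a log2 fold change of 0.72, and with any 1 of the 6 libraries left out it lay between 0.0802 (without shControl replicate 3) and 0.138 (without shControl replicate 1), while the log2 fold change stayed between 0.67 and 0.88.

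Axl (chromosome 7, 25757273 to 25788705, reverse strand), a receptor of the TAM family often found in mesenchymal-like tumor cells, was among the most abundant receptors, with 331, 494 and 218 UMIs in shControl and 609, 593 and 276 in shLmna. Its normalized counts were 129.8, 154.5 and 115.7 against 228, 218 and 147. Replicates 1 and 2 of shLmna were above all shControl libraries, and shLmna replicate 3 lay below shControl replicate 2. The log2 fold change was 0.57 (SE 0.18, 95% interval 0.19 to 0.95, adjusted p = 0.0464, edgeR). This call was narrow too, with an adjusted p of 0.0403 with DESeq2 but 0.0555 with limma-voom, 0.0568 without a filter on low counts, 0.0527 with counts thinned to the smallest library and 0.0506 among genes with a mean count of at least 50. Of the markers given above, the mesenchymal marker Acta2 was higher in shLmna, but passed the filter on low counts only through the shLmna libraries. Vim, at a log2 fold change of 0.18, and Zeb1 did not pass, and the other 4 listed mesenchymal markers were too scarce to be tested. The epithelial markers Epcam, Krt14 and Krt18 were lower in the estimate without passing, and Krt8, the highest of them, was at 0.074. The part of these markers in the differences of Axl and Pdgfrb was not tested. With 1 library left out, the adjusted p of Axl fell to 0.0218 without shLmna replicate 3 and rose above 0.05 without any of the other 5, reaching 0.179 without shLmna replicate 1. Without both melanocyte-marker libraries the log2 fold change was 0.41 (adjusted p = 0.178), and between these 2 libraries alone, which gives no test, Axl was 1.88-fold higher in shLmna.

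Epha2, a receptor for ephrin-A ligands on neighbouring cells (chromosome 4, 141301240 to 141329384, forward strand), had normalized counts of 184, 154 and 137 in shControl and 161.5, 125 and 140.4 in shLmna. The ranges overlapped, and the log2 fold change was -0.16 (SE 0.16, 95% interval -0.49 to 0.18, adjusted p = 0.552, edgeR). At 259 to 493 UMIs per library, Epha2 had the narrowest interval of the 9 receptors.

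**Figure D2:**
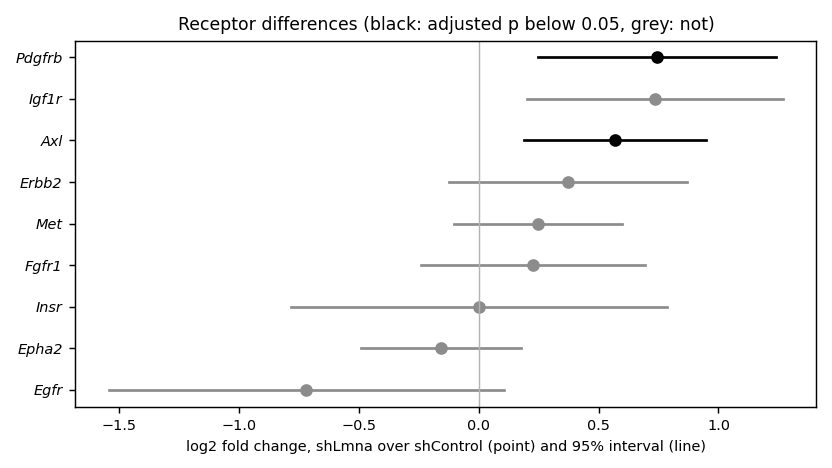
Log2 fold change of shLmna over shControl for the 9 receptors (points) with its 95% interval from edgeR (lines), black for an adjusted p below 0.05 and grey otherwise. The intervals of Pdgfrb, Igf1r and Axl lie above 0, from 0.25, 0.20 and 0.19 upwards, while that of Egfr, -1.54 to 0.10, includes 0.

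The direction of 8 of the 9 receptors, all but Insr, was the same under every alternative analysis in which they were tested. Without both melanocyte-marker libraries 0 of the 9 receptors passed (edgeR, 2 libraries in each group), and the log2 fold change of Igf1r was then 0.70 (adjusted p = 0.155). With a term for these libraries in the fit of all 6, Igf1r passed as well (adjusted p = 0.0449, edgeR). The part of these markers in the results was not tested. The GC content of the counted 3' end moved with the differences across genes. The genes higher in shLmna at an adjusted p below 0.05 had a median GC content of 44.3% and the lower genes 49.6%, and Spearman's rho between GC content and log2 fold change was -0.13 over 8934 genes, which are not independent replicates. Of the receptors, 6 lay below the median of 47.1% over these genes, from Egfr at 36.0% to Fgfr1 at 44.4%, and Erbb2, Epha2 and Pdgfrb lay above it. After the GC correction 48.6% of the genes past the threshold were higher in shLmna, against 58.0% without it, and Axl (log2 fold change 0.59, adjusted p = 0.0326) and Pdgfrb (0.77, adjusted p = 0.0270) still passed, and Igf1r stood at 0.62 (adjusted p = 0.0831).

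**Figure D3:**
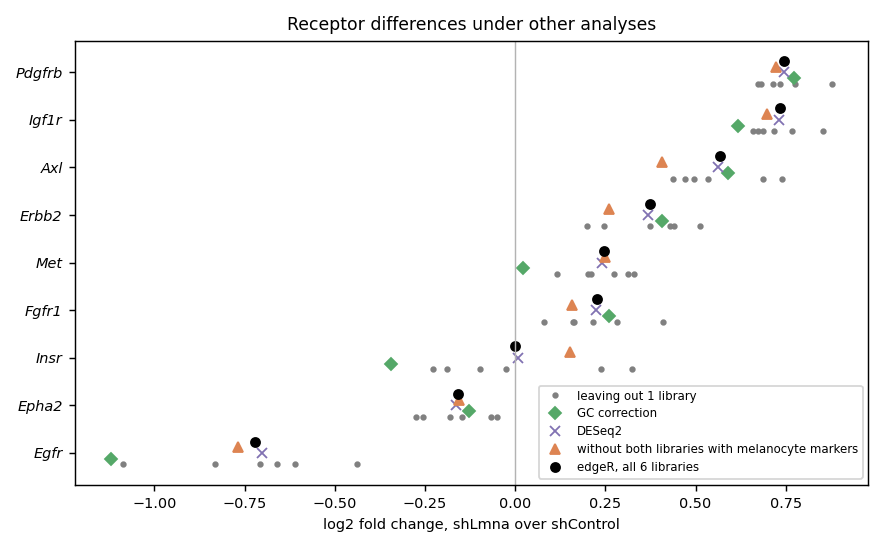
Log2 fold change of each receptor (horizontal axis) with edgeR on all 6 libraries (black circles), with each library left out (grey dots), after the GC correction (green diamonds), with DESeq2 (purple crosses) and without both melanocyte-marker libraries (orange triangles). Met moved from 0.25 to 0.021 and Egfr from -0.72 to -1.12 with the GC correction, while Pdgfrb stayed between 0.67 and 0.88 in the points shown.

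Among all tested genes, the libraries in which Pdgfrb was high or low were followed most closely by Pik3cd, 2810006K23Rik and Scyl3, with Pearson's r of log2 CPM of 0.994, 0.991 and 0.990 over the 6 libraries. For Axl the closest were Zfp787 (0.994), Grhpr (0.993) and Mis18a (0.990). These are the highest correlations among all tested genes over only 6 libraries, which share the contrast between the groups, and they are given as descriptions.

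Of 44 other receptor tyrosine kinases, 13 were listed and 10 were tested. Of these, 2 rose, 0 fell and 8 did not pass (the same counts with DESeq2 and limma-voom, and 1 lower at an unadjusted p below 0.05 with edgeR), with a median log2 fold change of 0.14. Among all tested genes, 7.96% passed in the higher direction (edgeR). Both kinases that rose are the discoidin domain receptors, which bind collagen rather than a soluble growth factor. Ddr1 had normalized counts of 21.2, 23.1 and 26.0 in shControl and 52.5, 54.0 and 62.2 in shLmna, a log2 fold change of 1.26 (SE 0.18, adjusted p = 0.00038, edgeR). Ddr2 had 5.10, 7.19 and 15.9 against 26.2, 35.6 and 34.6, a log2 fold change of 1.84 (SE 0.32, adjusted p = 0.00153, edgeR). Every shLmna library was above every shControl library for both genes, as was the case for 16.8% of all tested genes. The highest shControl value of both was in shControl replicate 3, a melanocyte-marker library. Without both such libraries the log2 fold changes were 1.36 for Ddr1 and 2.26 for Ddr2, and each passed with any 1 library left out. The counted end of Ddr2 overlaps an exon of 3110045C21Rik on the opposite strand. Ryk, a Wnt co-receptor, was the most abundant of the tested genes that did not pass, with a log2 fold change of 0.31 (adjusted p = 0.184, edgeR).

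Of 32 ligands of these or related receptors, 10 were listed and 8 were tested, of which 0 rose, 2 fell and 6 did not pass (the same counts with DESeq2, limma-voom and at an unadjusted p below 0.05 with edgeR), and the median log2 fold change was -0.07. Among all tested genes, 5.78% passed in the lower direction (edgeR). Both ligands that fell bind the EGF receptor and are shed from the cell surface. Hbegf, heparin-binding EGF (chromosome 18, 36504927 to 36515805), had normalized counts of 68.6, 65.7 and 60.5 in shControl and 27.7, 29.7 and 45.7 in shLmna. Its log2 fold change was -0.94 (SE 0.20, adjusted p = 0.00605, edgeR). Areg, amphiregulin, a ligand of mammary duct growth (chromosome 5, 91139599 to 91148432), had 30.2, 25.3 and 28.1 against 16.9, 13.6 and 15.4, a log2 fold change of -0.86 (SE 0.21, adjusted p = 0.0139, edgeR). The groups did not overlap for either ligand, as was the case, lower in shLmna, for 15.7% of all tested genes. Hbegf passed with any 1 library left out, at adjusted p-values up to 0.0454. Areg had an adjusted p of 0.0629 without shLmna replicate 2 and 0.0548 without both melanocyte-marker libraries. Pdgfa, the most abundant gene of this list, had a log2 fold change of 0.14 (adjusted p = 0.548, edgeR). It codes for the A chain of PDGF, whose main receptor is Pdgfra, counted here among the other receptor tyrosine kinases.

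Igfbp4, a secreted protein that holds insulin-like growth factors away from their receptor, had normalized counts of 1089, 875 and 796 in shControl and 1529, 1314 and 1503 in shLmna. All 3 shLmna libraries were above the shControl libraries, as was the case for 16.8% of all tested genes. The log2 fold change was 0.66 (SE 0.15, adjusted p = 0.00952, edgeR), with an adjusted p of 0.0749 without shControl replicate 2 and 0.0506 without shLmna replicate 3. Igfbp4 was 1 of the 2 IGF binding proteins tested, and the other, Igfbp6, had a log2 fold change of 0.39 (adjusted p = 0.143, edgeR). The share passing in the higher direction among all tested genes was 7.96% (edgeR).

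**Figure D4:**
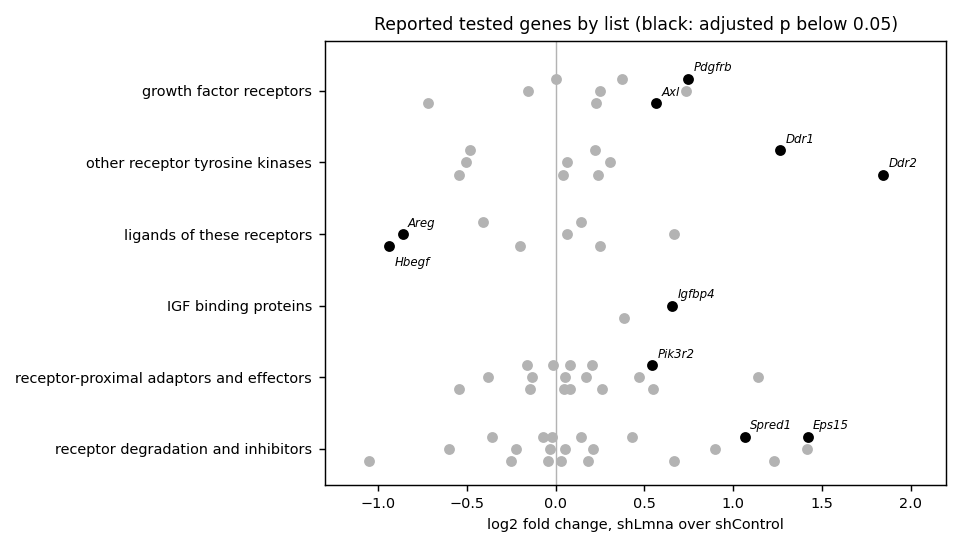
Log2 fold change of shLmna over shControl (horizontal axis) of the tested genes by list, without 1 of the adaptors and effectors, black and named for an adjusted p below 0.05 (edgeR) and grey otherwise, with the vertical spread within a list for legibility only. The black points lie at -0.94 and -0.86 among the ligands and above 0 in the other lists.

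Of 26 adaptors and effectors next to the receptors, 18 were tested, of which 2 rose, 0 fell and 16 did not pass (the same counts with DESeq2 and limma-voom, and 3 higher and 2 lower at an unadjusted p below 0.05 with edgeR). The median log2 fold change was 0.08, and 13.7% of all tested genes passed in either direction (edgeR). Pik3r2, a regulatory subunit of PI3-kinase, was at 151, 118 and 119 against 226, 171 and 168, a log2 fold change of 0.54 (SE 0.16, adjusted p = 0.0391, edgeR), and passed in 1 of the 6 fits that left out a library, with adjusted p-values between 0.0305 and 0.179, the highest without shLmna replicate 1. Its counted end overlaps an exon of 6330537M06Rik on the opposite strand. Grb2 and Shc1, the adaptors that link receptors to Ras, had log2 fold changes of 0.26 (adjusted p = 0.311) and 0.21 (adjusted p = 0.516, both edgeR).

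Of 29 genes of receptor degradation and inhibition, 21 were tested, of which 2 rose, 0 fell and 19 did not pass (the same counts with DESeq2 and limma-voom, and 5 higher and 2 lower at an unadjusted p below 0.05 with edgeR), and the median log2 fold change was 0.05. The share passing among all tested genes was 13.7% in either direction (edgeR). Eps15, an endocytic adaptor of ubiquitinated receptors, had 18, 9 and 13 UMIs in shControl and 27, 46 and 31 in shLmna, a log2 fold change of 1.42 (SE 0.36, adjusted p = 0.0170, edgeR). It was 0.92 (adjusted p = 0.0784) after the GC correction, with a GC content of 34.6%, and the adjusted p was 0.112 without shControl replicate 2, 0.0662 without shLmna replicate 2 and 0.0811 without shLmna replicate 3. Spred1, an inhibitor of the step from Ras to Raf, had 17, 36 and 22 UMIs against 45, 61 and 43, a log2 fold change of 1.07 (SE 0.27, adjusted p = 0.0158, edgeR), and adjusted p-values of 0.0705, 0.0548, 0.0567 and 0.0694 without shControl replicate 1, shControl replicate 2, shLmna replicate 2 and shLmna replicate 3. Errfi1 and Lrig1, inhibitors that act on the EGF receptor family, had log2 fold changes of -0.046 (adjusted p = 0.954) and -0.033 (adjusted p = 0.947, both edgeR). Without both melanocyte-marker libraries Hbegf, Igfbp4, Pik3r2, Eps15 and Spred1 passed, with adjusted p-values from 0.0112 for Hbegf to 0.0485 for Pik3r2 (edgeR).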

How the data were processed

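Poly(A) RNA, isolated with oligo(dT) beads, of 3 shControl and 3 shLmna E0771 libraries was profiled by MARS-seq. The authors trimmed reads with Cutadapt, mapped them to mm10 with STAR 2.4.2a and used a modified HTSeq-count for UMI counting over a window of 1000 bases at the 3' end of every RefSeq gene plus 100 bases beyond it; the deposited counts are not normalized. Every listed gene had at least 6 UMIs in some library. Deposited ComBat values, and a table with the authors' own mean normalized counts, log2 fold changes, p-values and adjusted p-values, were not used.

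Counts were analysed with edgeR 4.0.16 in R 4.3.3: filterByExpr with a minimum count of 10, TMM factors, and the quasi-likelihood test with Benjamini-Hochberg adjustment, without a replicate block. Standard errors are the log2 fold change before edgeR's shrinkage, divided by the square root of the F statistic. The printed edgeR log2 fold changes, on which the intervals are centred, are those after shrinkage. DESeq2 1.42.0 and limma-voom (limma 3.58.1) were alternatives, and scripts were tested on simulated data. GC content refers to the final 1000 bases of the longest coding GENCODE M21 transcript, found for 10469 genes, and its effect was removed with a loess curve per library (span 0.3).

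The receptors and gene lists were chosen with earlier results of these data known. Named by rule were the 9 receptors, Lmna, each list's genes with an adjusted p below 0.05 (at most 6 in each direction) and the 3 genes that followed Axl and Pdgfrb most closely. Ryk, Pdgfa, Igfbp6, Grb2, Shc1, Errfi1, Lrig1 and single marker genes were added after their values were seen, as were the analyses that leave out or model the melanocyte-marker libraries. For 1 of the adaptors and effectors, counted in its list, no values are reported here.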

Additional observations from a re-analysis of the deposited data

How the results depend on the processing

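The GC correction moved the share of higher genes among those past the threshold from 58.0% to 48.6%. Egfr, Igf1r, Insr and Pdgfrb rest on 7 to 51 UMIs per library, and whether more depth would change their calls was not tested. With counts thinned to the smallest library, the log2 fold change was 1.05 for Pdgfrb (adjusted p = 0.0138), 0.79 for Igf1r (adjusted p = 0.108) and -0.97 for Egfr (adjusted p = 0.189, all edgeR). The number of receptors higher in shLmna, 2 with edgeR, was 1 with DESeq2, limma-voom, no filter on low counts, thinned counts or the replicate block, 0 with a mean count of at least 50, which tests fewer genes, and 0 without both melanocyte-marker libraries. It was 0 to 1 with 1 library left out. The genes higher among all tested genes, 714, were 425 at a mean count of at least 50 and 353 to 882 with 1 library left out. The genes lower, 518, were 803 at an adjusted p below 0.1, 838 with a term for the melanocyte-marker libraries and 187 to 698 with 1 library left out. Other receptor tyrosine kinases that passed, 2, were 1 at a mean count of at least 50. Ligands, 2, were 1 with thinned counts, 1 without both melanocyte-marker libraries and 1 to 2 with 1 library left out, and IGF binding proteins, 1, were 0 to 1. Adaptors and effectors, 2, were 4 without a filter, 1 at a mean count of at least 50, 1 with the GC correction and replicate block, 4 without both melanocyte-marker libraries, 5 with the term for them, 5 at an adjusted p below 0.1 and 0 to 4 with 1 library left out. Genes of degradation and inhibition, 2, were 0 at a mean count of at least 50, 4 with the GC correction with or without the block, 5 without both melanocyte-marker libraries and with the term for them, 6 at an adjusted p below 0.1 and 0 to 6 with 1 library left out. The log2 fold change of Insr turned to -0.005 with RLE scaling, -0.003 with limma-voom and without a filter, -0.016 with the replicate block, -0.05 with thinned counts, -0.35 with the GC correction with or without the block, and ran from -0.23 to 0.32 with 1 library left out. The cause of these shifts was not tested. Lmna and the directions of the other named genes held throughout.

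Between libraries sharing a number, deviations from the group mean had correlations of 0.352, -0.115 and 0.00519, and shLmna replicate 2 correlated best with shControl replicate 3 (0.350), so the numbers were not taken to pair the libraries. With the replicate block Pdgfrb had an adjusted p of 0.0551 (edgeR) and 773 genes were higher and 577 lower.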

Other observations

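Of the genes in the lists above, 13 were too scarce for the filter on low counts, and 3 of these, Rasa1, Cblb and Yes1, had an adjusted p below 0.05 when no filter was applied (edgeR). Along with Ereg and Epha1 they had no more than 3 UMIs in any shControl library, and they are named after their values were seen. Rasa1, the GTPase-activating protein that switches Ras off, was counted at 0, 1 and 0 UMIs across shControl replicates 1 to 3 and at 9, 18 and 15 UMIs across those of shLmna. Its adjusted p was 0.00166 when no filter was applied (edgeR). Cblb, a ubiquitin ligase for activated receptors, had 1, 2 and 0 UMIs against 8, 8 and 4 (adjusted p = 0.0377 without a filter, edgeR). Yes1, a Src family kinase, had 0, 0 and 1 against 2, 12 and 4 (adjusted p = 0.0444 without a filter, edgeR), with its highest value in shLmna replicate 2, a melanocyte-marker library. Ereg, epiregulin, a ligand of the EGF receptor, had 1, 0 and 1 against 6, 4 and 5 and missed the threshold (adjusted p = 0.0642 without a filter, edgeR). Epha1, an ephrin receptor, had 2, 3 and 2 against 7, 0 and 1 (adjusted p = 0.914, edgeR). The other 8 did not pass, with adjusted p-values from 0.210 to 0.772 (edgeR), among them Igfbp2, with 6, 3 and 0 against 1, 0 and 0, and Fgf18, with 7, 4 and 3 against 2, 5 and 0. The GC content of the 3' ends of Rasa1, Cblb, Yes1 and Ereg was 29.5%, 35.9%, 28.1% and 34.7%, all below the median of 47.1% over the tested genes, and its part in these values was not tested.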
